A study of Mus musculus with 9 samples.

Results

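The natriuretic peptide system of the heart was followed over 3 groups of mouse hearts through 7 genes: the peptide genes Nppa, Nppb and Nppc, the convertase gene Corin, and the receptor genes Npr1, Npr2 and Npr3. They were chosen by name, with gene symbols matched to the gene IDs of the deposited tables. Of these 7, 6 had a row among 16873 genes; Nppc was not analysed here. The groups, of 3 RNA-seq libraries each, were wild-type (WT) hearts after saline, WT hearts after doxorubicin (DOX) and hearts of Sting-knockout (Sting-/-) mice after doxorubicin. Doxorubicin is an anthracycline used against cancer that can injure the heart, and the series gave it at a low dose as a model of chronic injury. STING is an adaptor protein that relays the detection of DNA outside the nucleus to inflammatory genes, and the study asked what it does in the drug-treated heart. The dose, the schedule and the age of the mice are not given in the sources used here. Untreated Sting-/- hearts were not analysed here, and what the knockout does with and without the drug therefore cannot be told apart. Whether each library is a separate animal is not stated in the labels, and the p-values measure only the spread between libraries, which may be technical.

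Atrial natriuretic peptide (ANP, from Nppa) and brain natriuretic peptide (BNP, from Nppb) are hormones that heart muscle cells release when they are stretched or stressed, and their genes are standard markers of cardiac stress. Corin is a membrane protease of cardiomyocytes that cuts the ANP precursor into the active hormone. Both hormones act through NPR-A (from Npr1), a receptor that makes the messenger cyclic GMP (cGMP) inside the cell, while NPR-B (from Npr2) is the cGMP-making receptor of the related C-type peptide that Nppc encodes. NPR-C (from Npr3) binds all of these peptides and clears them. The effects of ANP and BNP include vessel relaxation, salt excretion and restraint of cardiac growth.

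Nppb and Nppa lie near each other on mouse chromosome 4, in the same orientation and with no other protein-coding gene of the RefSeq table between them. Stretches before the table's start of both are shown because the peptide genes changed most of the 6 under the drug and differed from each other in Sting-/- hearts. They are the RefSeq sequences of build GRCm38.p6, plus strand, 5′ to 3′. That of Nppa is chr4:148000472-148000721, the 250 bases before the table's start. That of Nppb is chr4:147985795-147985824, 30 bases that begin 105 bases before the table's start. The earliest annotated Nppb start lies 114 bases before the table's start, so the Nppb stretch lies downstream of that earliest start.
Nppa: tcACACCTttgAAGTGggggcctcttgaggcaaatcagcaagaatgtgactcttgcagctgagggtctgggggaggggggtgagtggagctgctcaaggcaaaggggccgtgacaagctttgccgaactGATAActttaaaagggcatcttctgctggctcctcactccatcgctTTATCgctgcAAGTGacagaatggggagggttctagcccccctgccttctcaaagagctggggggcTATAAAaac
Nppb: GGAATGcagctGATAAatcagaGATAAccc
Capitals mark exact matches on either strand to the GATA site GATAA, the NKX2-5 site AAGTG, the T-box site AGGTGT, the MCAT site CATTCC and the TATA box TATAAA.

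The Nppa stretch held 2 GATA matches, 121 and 75 bases before the table's start, and 2 NKX2-5 matches, 239 and 65 bases before it. It also held 1 T-box match, 248 bases before the table's start, and 1 TATA box, only 9 bases before it. In the Nppb stretch 2 GATA matches lay 94 and 83 bases before the start and 1 MCAT match 105 bases before it, and a TATA box lay 31 bases before it, outside the stretch shown. No marked match overlapped another. The AP-1 site TGANTCA, the E box CANNTG and the CArG box were searched as well and are not marked: neither gene's window held an AP-1 or CArG match, and E boxes lay 195 and 66 bases before the Nppa start, the latter overlapping an NKX2-5 match, and 99 bases before that of Nppb. Of the 32851 windows of 250 bases in the same table, 22.6% held GATAA, 40.7% AAGTG, 11.8% AGGTGT, 12.6% CATTCC, 12.4% TATAAA, 6.75% TGANTCA, 66.2% CANNTG and 1.47% the CArG box, so most of these short motifs are common. The windows of Npr1, Npr3 and Corin held none of the marked motifs, and that of Npr2 held 1 T-box match. These are letter matches in 1 window a gene and say nothing of binding.

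Levels are in FPKM, which counts fragments per kilobase of each transcript relative to the library total, so that levels can be compared between genes of unequal length. A change is a difference of log2(FPKM + 1) between groups, given with its standard error (SE), and passed where limma's adjusted p was under 0.05 over the 12485 genes that averaged 1 FPKM or more. All 6 genes met that minimum. Sting1, the deleted gene, was at 5.10 to 5.93 FPKM in saline and 17.49 to 17.96 FPKM in WT DOX libraries and was listed at 0.06, 0 and 0 FPKM in the Sting-/- ones. Libraries of 1 group correlated across genes at r = 0.996 to 0.998, and no library stood apart from its group. The median change of all tested genes was 0.13 in WT DOX against saline and 0.25 in Sting-/- DOX against WT DOX. Rescaling the libraries to a common median ratio brought these medians to -0.05 and 0.04. The share of calls that were higher was 67.8% as deposited, 45.1% after that rescaling and 39.2% after quantile normalization in WT DOX against saline. In Sting-/- DOX against WT DOX it was 64.6%, 52.1% and 51.4%, and in Sting-/- DOX against saline 70.9%, 54.6% and 51.3%. Sequencing depth is unknown.

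RNA of marker genes of the cell types that make and receive these peptides was not at equal levels in the 3 groups. All 13 cardiomyocyte markers were detected in every group, and their summed level was 65324 to 65571 FPKM in saline libraries, 43917 to 47089 after the drug in WT hearts and 9530.1 to 10009.8 in the Sting-/- group. The 13 endothelial markers summed to 436 to 447, 435 to 443 and 1849 to 1992 FPKM in the same order, so saline and WT DOX overlapped. The 10 fibroblast markers summed to 1007 to 1030, 1310 to 1333 and 6805 to 7145 FPKM, again in that order. For the 10 smooth muscle and pericyte markers the sums were 366 to 413, 288 to 301 and 989 to 1055 FPKM. Markers of the outer lining of the heart (mesothelial and epicardial) went from 6.47 to 9.03 FPKM in WT DOX to 99.7 to 104 in Sting-/- DOX libraries, and those of cartilage and tendon from 6.78 to 8.78 to 146 to 157. In whole tissue, fewer cells of a type and less RNA per cell cannot be told apart. The part of these shifts in the results below was not tested.

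The gene for ANP was the one of the 6 that rose most under the drug, and it was higher again in Sting-/- hearts. Nppa (gene ID 230899) was at 182, 212 and 215 FPKM in the saline libraries, 2614, 2958 and 2822 in WT DOX and 3646, 3630 and 3748 in Sting-/- DOX. The 3 groups did not overlap, and each step was upward. Nppa ranked between 374 and 434 by level among the genes of a saline library, between 13 and 16 in WT DOX and at 7 or 8 in Sting-/- DOX. Its rise under the drug in WT hearts was 3.78 (SE 0.0615, limma adjusted p = 7.82e-13), a 13.8-fold ratio of means and rank 33 among all rises. Against WT DOX, the Sting-/- level was higher by a further 0.39 (SE 0.0615, limma adjusted p = 7.21e-05), or 1.31-fold. The direction of that smaller step held under every scaling, but its size ran from 0.15 with median-ratio scaling to 0.70 with quantile normalization.

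The gene for BNP rose in WT hearts given doxorubicin and, unlike Nppa, was low in Sting-/- hearts given the same drug. Nppb (gene ID 18158) was at 209.9, 253 and 228 FPKM in saline, 1271, 1315 and 1244.5 in WT DOX, and 316, 287 and 290.45 in Sting-/- DOX libraries. The groups did not overlap, with the Sting-/- libraries just above saline and far below WT DOX. The rise in WT hearts was 2.47 (SE 0.0606, limma adjusted p = 1.51e-11), or 5.55-fold. Between the doxorubicin groups it fell in Sting-/- hearts by 2.10 on the log2 scale (SE 0.0606, limma adjusted p = 1.33e-11), which is 4.29-fold lower. Against saline the Sting-/- level differed by 0.37 (limma adjusted p = 8.57e-05), and median-ratio scaling turned this into -0.08 (adjusted p = 0.214), so whether Nppb stood above saline in Sting-/- hearts depended on the scaling.

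**Figure D1:**
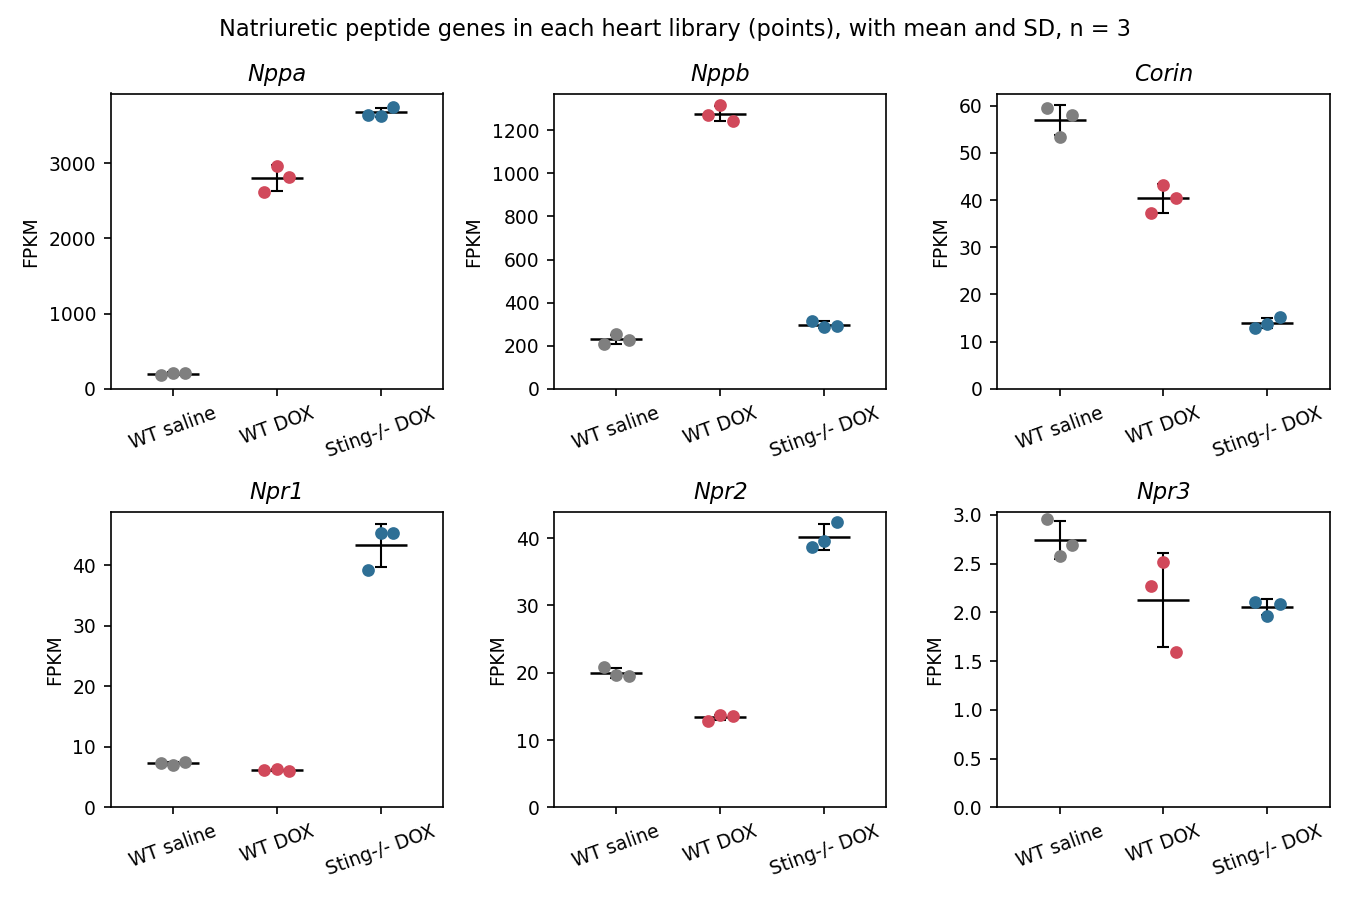
FPKM of the 6 genes in each of the 9 heart libraries (points, 1 per library; horizontal line and bar: group mean and SD, n = 3), each panel on its own linear axis from 0. Nppa is high in both doxorubicin groups, Nppb only in WT DOX, Corin steps down, Npr1 and Npr2 are highest in Sting-/- DOX, and the Npr3 libraries of WT DOX (1.59 to 2.52) and Sting-/- DOX (1.96 to 2.11) overlap.

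The balance of the hormone genes shifted with each group. The Nppa level divided by the Nppb level within a library was 0.866, 0.839 and 0.943 in saline, 2.06, 2.25 and 2.27 in WT DOX, and 11.5, 12.6 and 12.9 in Sting-/- DOX. Nppb was thus the more abundant transcript in each saline library and Nppa in each doxorubicin library. On the log2 scale the ratio was higher by 1.31 in WT DOX than in saline and by 2.49 in Sting-/- DOX than in WT DOX (exact permutation test, two-sided p = 0.1 for each, the smallest that 3 against 3 allows; 0.127 after Benjamini-Hochberg adjustment over 14 ratio tests). Multiplying a library by 1 factor leaves the ratio of its FPKM values unchanged, which quantile normalization need not do.

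Set beside the cardiomyocyte markers of the same library, both hormone genes stood higher in the doxorubicin groups. The log2 ratio of Nppa to the mean of the 13 markers was -3.58, -3.39 and -3.35 in saline, 0.78, 1.01 and 0.91 in WT DOX and 3.62, 3.53 and 3.57 in Sting-/- DOX. It differed by 4.34 between WT DOX and saline and by 2.67 between Sting-/- DOX and WT DOX (exact permutation p = 0.1 each, adjusted 0.127). For Nppb the ratio was -3.38, -3.14 and -3.27 in saline, -0.26, -0.16 and -0.27 in WT DOX and 0.09, -0.12 and -0.11 in Sting-/- DOX. The Nppb ratio differed by 3.03 between WT DOX and saline, and by 0.18 between Sting-/- DOX and WT DOX (exact permutation p = 0.1 each, adjusted 0.127), a step that was 0.56 with the median of the marker list in place of its mean. Between the doxorubicin groups Nppb thus fell slightly less than the mean of the cardiomyocyte markers. Its change of -2.10 lay within their range of -3.14 to -1.31 (median -2.44), while Nppa rose as these markers fell.

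**Figure D2:**
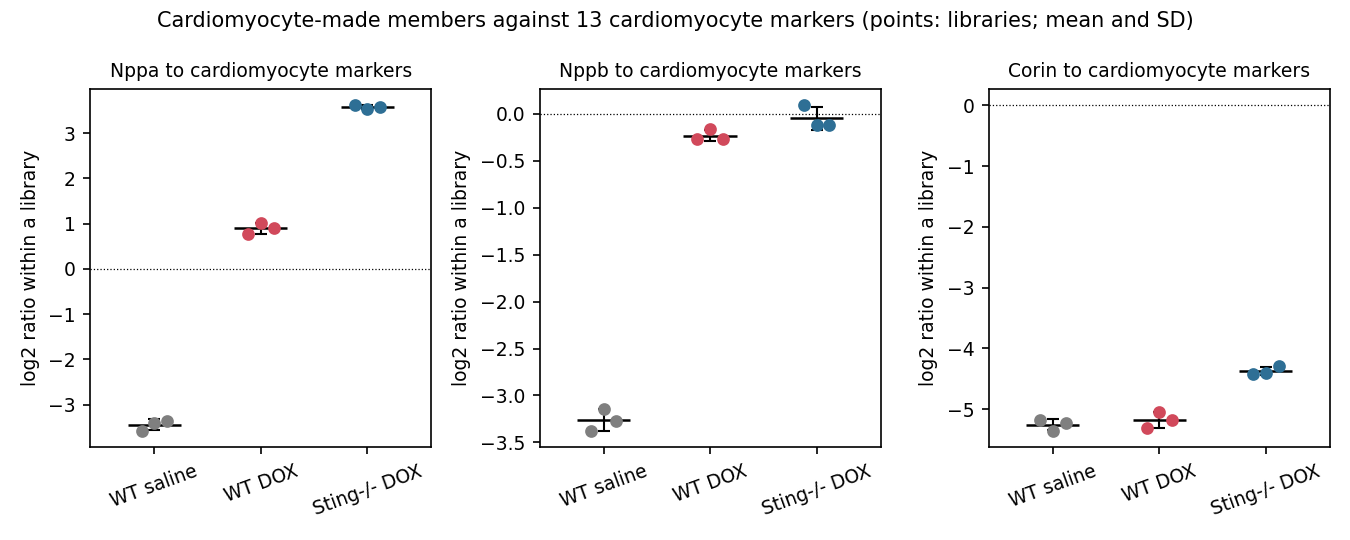
Log2 ratio of Nppa, Nppb and Corin to the mean of 13 cardiomyocyte markers within each library (points; line and bar: mean and SD, n = 3 per group; dotted line: equal level), with a separate vertical scale in each panel. Nppa steps up in each group, Nppb steps up once and then stays near 0, and Corin moves from about -5.18 in WT DOX to -4.37 in Sting-/- DOX.

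Corin fell in both steps. Corin (gene ID 53419) was at 59.6, 53.4 and 58.0 FPKM in saline, 37.3, 43.3 and 40.5 in WT DOX and 12.9, 13.8 and 15.1 in Sting-/- DOX libraries, with no overlap between groups. In WT hearts it fell by 0.49 under the drug (SE 0.0683, limma adjusted p = 5.11e-05). It fell by 1.47 in Sting-/- DOX against WT DOX (SE 0.0683, limma adjusted p = 1.00e-09), or 2.89-fold. Levels of the convertase gene and of Nppa thus moved in opposite directions in both comparisons, which share the WT DOX libraries. Relative to the cardiomyocyte markers, Corin differed by 0.07 between WT DOX and saline (exact permutation p = 0.5, adjusted 0.538), or -0.28 with the median of the list, and the groups overlapped. The same ratio was higher by 0.81 in Sting-/- DOX than in WT DOX (exact permutation p = 0.1, adjusted 0.127). Corin thus fell less than the mean of these markers, though within their range of -3.14 to -1.31.

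The signalling receptors were slightly lower under the drug in WT hearts and much higher in Sting-/- hearts. Npr1 (gene ID 18160) was at 7.40, 6.99 and 7.49 FPKM in saline, 6.23, 6.37 and 6.01 in WT DOX, and 39.3, 45.3 and 45.3 in Sting-/- DOX libraries. The Sting-/- libraries stood far above all others, and the small gap between the WT groups had no overlap either. Npr1 fell by 0.20 in WT DOX against saline (SE 0.0621, limma adjusted p = 0.0124), and by 0.43 with quantile normalization. It rose by 2.62 in Sting-/- DOX against WT DOX (SE 0.0621, limma adjusted p = 2.45e-12), a 6.98-fold ratio of means and rank 127 among all rises.

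Npr2 (gene ID 230103) was at 20.8, 19.6 and 19.5 FPKM in saline, 12.9, 13.7 and 13.5 in WT DOX, and 38.6, 39.6 and 42.4 in Sting-/- DOX libraries. No groups overlapped, and WT DOX was the lowest. The gene fell by 0.55 in WT DOX against saline (SE 0.0504, limma adjusted p = 1.44e-06) and rose by 1.52 in Sting-/- DOX against WT DOX (SE 0.0504, limma adjusted p = 4.53e-11), or 3.01-fold. In WT hearts Npr2 was the more abundant of the 2 cGMP-making receptors per transcript length, whereas in Sting-/- DOX hearts the libraries of both genes overlapped, at 38.6 to 42.4 and 39.3 to 45.3 FPKM.

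The clearance receptor gene was also lower in WT DOX than in saline but did not rise in Sting-/- hearts. Npr3 (gene ID 18162) was at 2.96, 2.58 and 2.69 FPKM in saline, 2.27, 2.52 and 1.59 in WT DOX and 2.11, 1.96 and 2.09 in Sting-/- DOX libraries. Both doxorubicin groups lay below every saline library, and they overlapped with each other. Npr3 fell by 0.27 in WT DOX against saline (SE 0.107, limma adjusted p = 0.0419), a call that was lost in 6 of 9 fits that left out 1 library. Without WT DOX replicate 3, the lowest library, the change was -0.14 (adjusted p = 0.189). Between Sting-/- DOX and WT DOX the difference was -0.02 (95% interval -0.26 to 0.21, limma adjusted p = 0.85), and with quantile normalization it was -0.36 (adjusted p = 0.00672).

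**Figure D3:**
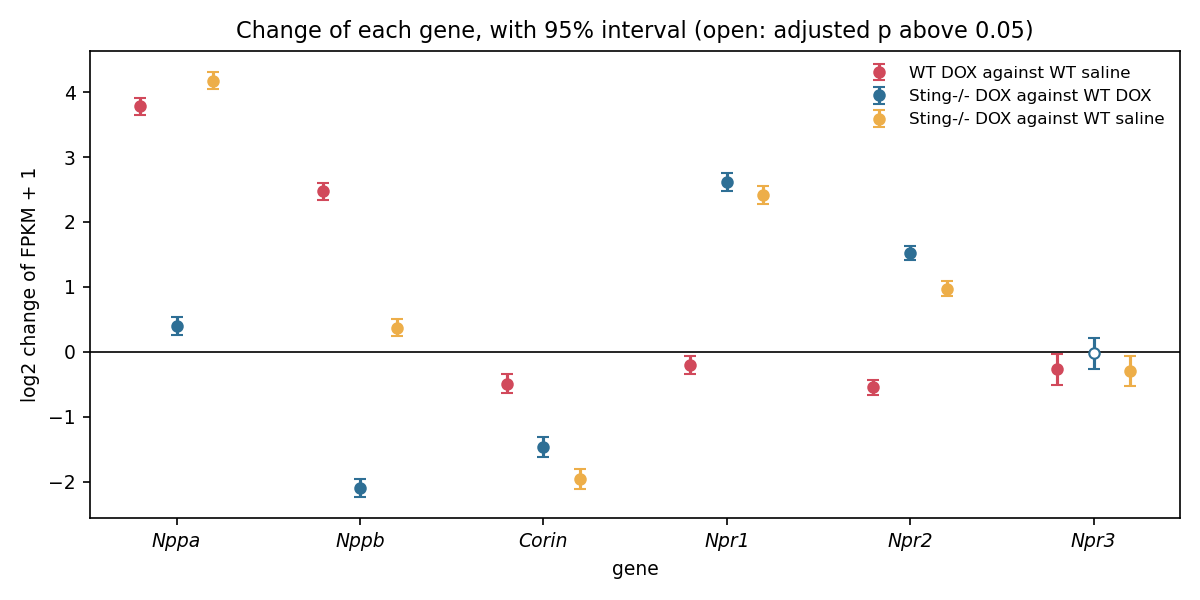
Change of log2(FPKM + 1) of each gene in the 3 comparisons, with 95% intervals from limma (filled points: adjusted p under 0.05; open point: above it). The open point is Npr3 in Sting-/- DOX against WT DOX at -0.02, and Nppb is the gene with large changes of opposite sign, 2.47 and -2.10, in the 2 comparisons that share WT DOX.

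The relation of the receptor genes to each other therefore differed between the genotypes. Npr3 divided by Npr1 was 0.400, 0.369 and 0.359 in saline, 0.364, 0.396 and 0.265 in WT DOX and 0.0537, 0.0433 and 0.0462 in Sting-/- DOX libraries. The saline and WT DOX libraries overlapped (log2 difference -0.07, exact permutation p = 0.9, adjusted 0.9), and the Sting-/- ones lay apart, lower by 2.64 on the log2 scale than WT DOX (exact permutation p = 0.1, adjusted 0.127). Relative to the 13 endothelial markers of the same library, Npr1 was higher by 0.53 in Sting-/- DOX than in WT DOX (exact permutation p = 0.1, adjusted 0.127), with no overlap between the groups, by 0.65 with a pseudocount of 0.1, and by 0.12 with the median of the list (p = 0.2). The markers themselves rose by 1.53 to 2.64 (median 2.03), and the Npr1 rise of 2.62 lay near the top of that range. Npr3 relative to the same markers was lower by 2.11 in Sting-/- DOX (exact permutation p = 0.1, adjusted 0.127). The 4 tested endocardial markers moved less uniformly than the endothelial ones, with 3 up and 1 down (median 1.16). No ratio to the endocardial markers was taken. Between WT DOX and saline these 2 ratios differed by -0.15 for Npr1 (p = 0.1, adjusted 0.127) and -0.22 for Npr3 (p = 0.2, adjusted 0.233, exact permutation tests), and with the median of the list by 0.19 and 0.12, so neither direction held.

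**Figure D4:**
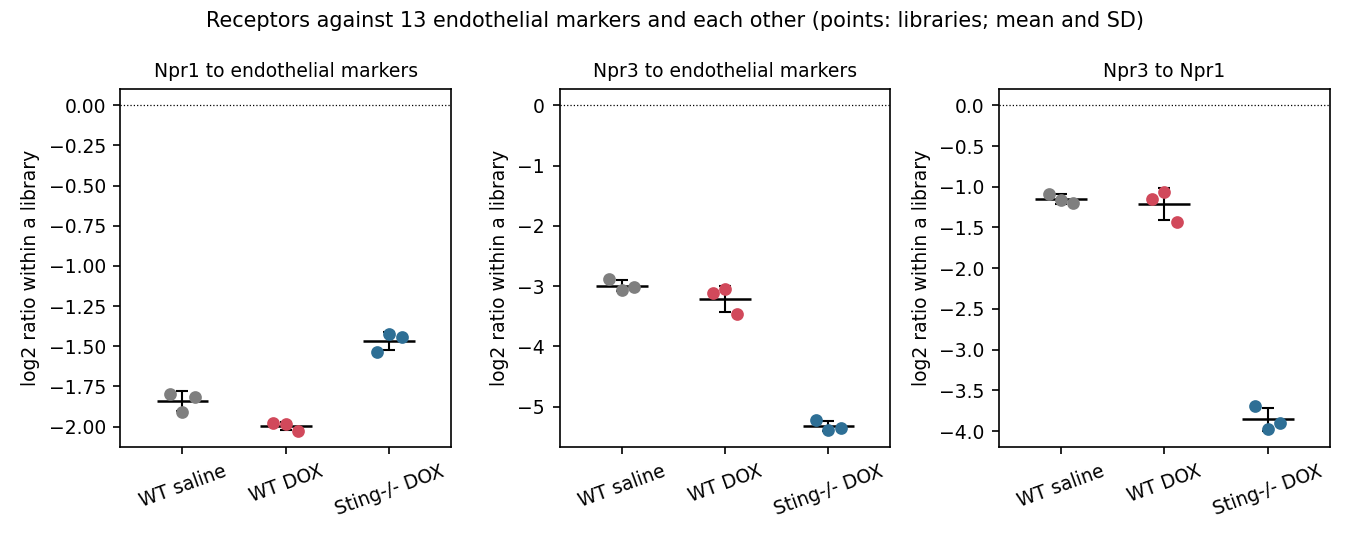
Log2 ratio within each library of Npr1 and Npr3 to the mean of 13 endothelial markers, and of Npr3 to Npr1 (points; line and bar: mean and SD, n = 3 per group; dotted line: equal level), with a separate vertical scale in each panel. In Sting-/- DOX hearts Npr1 sits somewhat higher against the markers (mean -1.467 against -1.997 in WT DOX), while Npr3 falls to -5.32 against the markers and to -3.86 against Npr1.

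Counted over all 6 genes, 2 rose and 4 fell in WT DOX against saline, where 66.7% of all tested genes were called, 45.3% higher and 21.5% lower. In Sting-/- DOX against WT DOX 3 rose, 2 fell and Npr3 did not pass, where 83.8% of all tested genes were called, 54.1% higher and 29.7% lower. Against saline, Sting-/- DOX had 4 higher and 2 lower, where 88.9% were called, 63% higher and 25.9% lower. Changes there were 4.18 for Nppa, 0.37 for Nppb, -1.96 for Corin, 2.41 for Npr1, 0.97 for Npr2 and -0.29 for Npr3, and that of Npr2 was 0.53 with median-ratio scaling. With shares this high in the background, the number of calls says little about these genes, and their sizes and directions carry the description. Libraries of the groups compared did not overlap for all 6 genes in both comparisons with saline, and for 5 of 6 between the doxorubicin groups. Among all tested genes the shares without overlap were 71.7% in WT DOX against saline, 84.8% in Sting-/- DOX against WT DOX and 89.2% in Sting-/- DOX against saline.

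A gene beside the peptide pair was read for comparison, chosen after its values were seen. Among protein-coding genes Clcn6, a chloride and proton exchanger gene, lies next to Nppa. It was at 2.53 ± 0.165, 2.97 ± 0.330 and 3.94 ± 0.0808 FPKM in saline, WT DOX and Sting-/- DOX (SD, n = 3). Its change in WT DOX against saline did not pass (0.16, limma adjusted p = 0.0809), but did without WT DOX replicate 1 (0.23, adjusted p = 0.0315). It also passed with sample weights (0.21, adjusted p = 0.0233) and without the variance trend (adjusted p = 0.0473). Over the 10 settings that kept all libraries of both groups it ran from -0.118 to 0.216, so its direction did not hold. The difference of 0.32 between the doxorubicin groups (limma adjusted p = 0.00227) was 0.13 with median-ratio scaling (adjusted p = 0.147) and 0.02 with quantile normalization (adjusted p = 0.856). This neighbour changed far less than Nppa or Nppb did in WT hearts. Predicted genes on the opposite strand overlap exons of Nppa, Npr1, Npr2, Npr3 and Corin by over 100 bases in the reference annotation, and whether reads were counted by strand is not given in the sources used here, so their reads cannot be told apart from those of the 5 genes.

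Counts for the lists of other genes below stand beside the shares of all tested genes. These were 45.3% higher and 21.5% lower in WT DOX against saline, and 54.1% and 29.7% in Sting-/- DOX against WT DOX. With shares this high, the counts alone say little about a list. The cGMP made by the receptors is read by cGMP-dependent kinase and broken down by phosphodiesterases. Of 11 genes in that list 9 were tested, and 4 rose and 2 fell in WT DOX against saline (median change -0.06, all genes 0.13), or 4 and 4 with median-ratio scaling. Pde1b and Pde1a, calcium-activated phosphodiesterases, rose by 1.10 and 1.09 (limma adjusted p = 8.33e-07 and 9.48e-08), and Pde3b and Pde9a by 0.77 and 0.51. Pde3a and Pde2a fell by 0.29 and 0.23. The Sting-/- DOX group against WT DOX had 6 that rose and 3 that fell (median 0.53, all genes 0.25). Pde2a, the cGMP-stimulated form, rose by 1.72 from 18.4 ± 0.110 to 63.1 ± 1.85 FPKM (SD, n = 3), and Pde5a, the cGMP-specific form, rose by 1.11. Pde1c fell by 2.36 and Pde3a by 1.11. Prkg1, which encodes the main cGMP-dependent kinase of muscle and is named outside the rule, was at 2.75 ± 0.0794, 2.58 ± 0.116 and 1.45 ± 0.163 FPKM in saline, WT DOX and Sting-/- DOX (SD, n = 3). It fell by 0.55 between the doxorubicin groups (limma adjusted p = 2.78e-05). Its -0.07 in WT DOX against saline did not pass, but did with median-ratio scaling (-0.23, adjusted p = 0.0188) and quantile normalization (-0.34, adjusted p = 0.00137).

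Nitric oxide makes cGMP by another route, through soluble guanylate cyclase. Of 6 genes 4 were tested, and in WT DOX against saline 1 rose and 2 fell (median -0.13), or 1 and 3 with median-ratio scaling. Nos3, the endothelial nitric oxide synthase gene, rose by 0.39, and the cyclase subunits Gucy1a1 and Gucy1b1 fell by 0.49 and 0.19, the latter call being lost without WT saline replicate 3 (adjusted p = 0.0622) or WT DOX replicate 1 (adjusted p = 0.0663). All 4 rose in Sting-/- DOX against WT DOX (median 1.55). Gucy1a1 rose by 2.85 from 2.82 ± 0.214 to 26.5 ± 0.675 FPKM, Nos3 by 1.70, Gucy1b1 by 1.39 and Nos2, the inducible synthase gene, by 1.25. The tested genes of both cGMP-making routes, Npr1 and Npr2 included, were therefore highest in Sting-/- hearts. Against WT DOX, all 13 endothelial markers rose there too (median 2.03). So did 8 of 10 smooth muscle and pericyte markers, with 1 lower (median 1.09), and 9 of 10 fibroblast markers, with 0 lower (median 1.63). Which cells carried the rises of these genes was not tested.

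Peptidases and convertases that act on these peptides or their precursors changed less uniformly. Of 8 genes 7 were tested, with 5 up and 2 down in WT DOX against saline (median 0.28, with 3 up and 2 down after median-ratio scaling) and 4 up and 2 down in Sting-/- DOX against WT DOX (median 0.24, with 2 up and 2 down after that scaling). Ide, the insulin-degrading enzyme, which also cleaves natriuretic peptides, rose by 1.09 in WT hearts from 24.1 ± 0.890 to 52.4 ± 1.74 FPKM and fell by 2.05 in Sting-/- DOX to 11.9 ± 1.25 FPKM (SD, n = 3). Mme, which encodes neprilysin, fell by 0.86 and then by 0.49, to 0.703 ± 0.0929 FPKM. Pcsk6, a convertase that activates corin, fell by 0.85 in WT DOX, and Furin, a convertase that cuts the BNP precursor, rose by 0.48. Between the doxorubicin groups Pcsk7 rose by 0.91 and Pcsk5 by 0.78.

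Of 9 genes for substrates and effectors of cGMP-dependent kinase 7 were tested. In WT DOX against saline 2 rose and 4 fell (median -0.25): Vasp, an actin regulator, rose by 1.12, Pln, the brake on the calcium pump of cardiomyocytes, fell by 0.72, Mrvi1, a regulator of calcium release, by 0.49 and Rgs4 by 0.39. The rise of 0.19 of Ppp1r12a, a myosin phosphatase subunit, was -0.01 and -0.02 with median-ratio scaling and quantile normalization. In Sting-/- DOX against WT DOX 4 rose and 3 fell (median 0.37). Pln fell by 3.10, from 2520.4 ± 40.7 to 294 ± 5.46 FPKM, and Hspb6, a small heat shock protein of muscle, by 2.46, beside cardiomyocyte markers that all fell. Rgs4, which restrains G protein signalling, and Mrvi1 rose by 1.501 and 1.15.

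The 14 transcription factors known to act on the Nppa and Nppb locus were all tested and moved little under the drug in WT hearts. There 5 rose and 3 fell (median -0.06), but 0 rose and 8 fell with median-ratio scaling. Tbx5, a T-box activator, fell by 0.44 and Myocd by 0.29. Gata4 rose by 0.25 and Rest, a repressor of both peptide genes, by 0.28, and these rises were 0.07 and -0.01 with quantile normalization, neither passing. Of the 14, 4 rose and 10 fell in Sting-/- DOX against WT DOX (median -0.35). Tbx3 and Tbx2, T-box repressors that keep Nppa off in parts of the developing heart, rose by 1.96 and 1.18. Myocd fell by 1.88, Nkx2-5 by 1.63 and Gata4 by 1.59, the last from 46.7 ± 1.95 to 14.8 ± 0.73 FPKM (SD, n = 3). Nppa was thus at its highest level in the group in which the genes for its activators GATA4 and NKX2-5 were at their lowest, and in which the cardiomyocyte markers were lowest too.

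**Figure D5:**
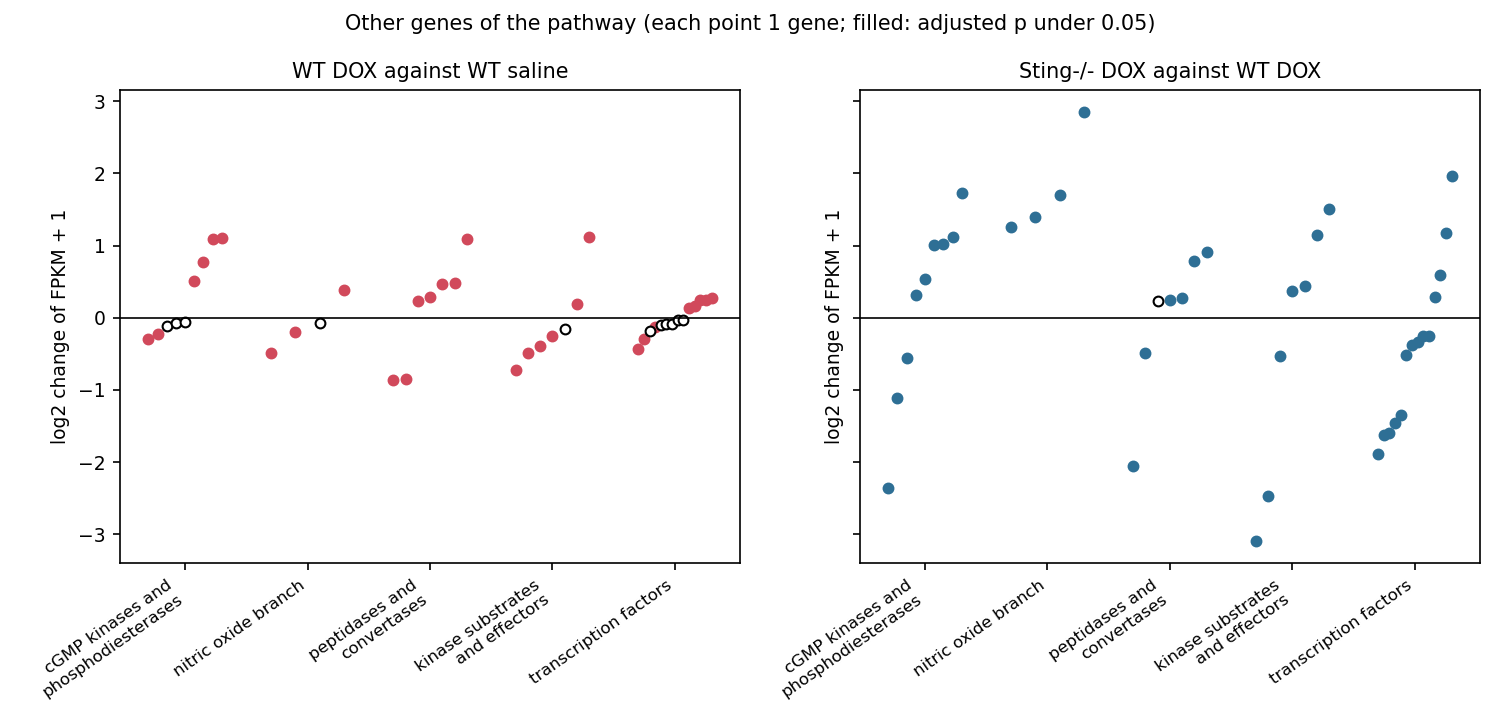
Change of log2(FPKM + 1) of the other genes of the pathway (1 point a gene, ordered by change within each list; filled: adjusted p under 0.05) in WT DOX against saline and in Sting-/- DOX against WT DOX, on 1 vertical scale. Changes reach 1.12 at most in WT hearts, while between the doxorubicin groups they run from -3.10 to 2.85, with all 4 tested genes of the nitric oxide branch above 0.

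Nppa is also a gene of atrial muscle, so atrial markers were read beside it. Of 10 listed markers 8 were tested, and 5 rose and 2 fell in WT DOX against saline (median 0.43) and 6 rose and 1 fell in Sting-/- DOX against WT DOX (median 1.30). Their summed level was 41.5 to 43.1 FPKM in saline libraries, 67.8 to 74.7 after the drug in WT hearts and 141 to 159.85 in the Sting-/- group, with no marker at 0 throughout a group. The 3 with the highest mean level were named first. Myl7, an atrial myosin light chain, was at 0.487 ± 0.00577, 13.9 ± 2.29 and 32.9 ± 4.07 FPKM in saline, WT DOX and Sting-/- DOX, and Myl4, another, at 1.74 ± 0.214, 19.7 ± 0.572 and 28.9 ± 2.75 (SD, n = 3). Kcnj3, a potassium channel gene, moved the other way, by -0.72 and -2.64. The rest of the tested list is named outside the rule. Between the doxorubicin groups its largest rises were those of Dkk3 (3.74), Kcna5 (2.17), Gja5 (1.75) and Nr2f2 (1.42). Myl7 rose by 1.19 and Myl4 by 0.52, and the 0.32 of Sln did not pass (limma adjusted p = 0.111). Dkk3 went from 1.38 to 30.8 FPKM on average, so the higher sum was not that of the atrial light chains alone. Of 6 ventricular markers 2 rose and 3 fell in WT DOX against saline (median -0.14), with Myh7 rising by 1.79, and 1 rose and 5 fell in Sting-/- DOX against WT DOX (median -1.52). Their sums of 14113 to 15044, 8410 to 8696 and 2048 to 2285 FPKM in the same order were mostly Myl2, at 14297, 8292 and 2061 FPKM on average. The share of atrial tissue in each heart sample is not given in the sources used here, and its part in the Nppa values was not tested.

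The genes whose levels ran most closely with each of the 6 over the 9 libraries differed by gene. These are descriptions over 9 libraries that share 3 groups. For Nppa they were Tubb2a (Pearson r = 0.9993), Ctss (0.9993) and Srgn (0.9991), and Ctss, a cathepsin gene of macrophages, was at 27.1, 271 and 340 FPKM on average in saline, WT DOX and Sting-/- DOX. For Nppb they included Ms4a4c (0.9972) and Ifi207 (0.9952), and Ms4a4c was at 2.37, 33.1 and 3.87 FPKM. Npr1 ran with Hspa12b (0.9998), Anapc5 (0.9995) and Scarf1 (0.9993), and Npr2 with Cd300lg (0.9992), Aqp1 (0.9988) and C1qtnf9 (0.9987). Aqp1, a water channel gene of capillary endothelium, was at 112, 51.5 and 425 FPKM. Corin ran with Svip (0.9988), Cacna2d1 (0.9985) and Dym (0.9984), where Cacna2d1 encodes a subunit of the cardiac calcium channel and was at 44.9, 33.4 and 12.4 FPKM. For Npr3 the closest were looser, Prss36 (0.919), Ikzf5 (0.905) and Pex26 (0.901).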

How the data were processed

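The authors deposited 1 FPKM value per gene and heart library, printed to 2 decimals. Per the submitters' processing notes the build was GRCm39, and the tools, with no roles given, were RSEM 1.2.12, HISAT2 2.0.4 and Bowtie2 2.2.5. FPKM is relative to the library total, so large shifts in abundant genes move all others. Low values lay within 0.1 reads of a whole number in only 50% to 56.6% of cases, so no counts were recovered and depth is unknown.

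Gene IDs were matched to symbols through the RefSeq table of GRCm38.p6 (16825 matched, 48 not), whose build differs from that of the files and which also gave the promoter sequences, with all 7 genes found in the latter. Groups came from the sample titles. The test was that of limma 3.58.1 in R 4.3.3 on log2(FPKM + 1) (trended variance prior, 9 libraries in 1 fit, 6 residual degrees of freedom), two-sided, with Benjamini-Hochberg adjustment over the 12485 genes averaging 1 FPKM or more and a threshold of 0.05. The step was also run on simulated data in which far fewer genes changed than were called here, and no result rests on that run. Log2 ratios within a library were compared by exact permutation tests. The genes and lists were chosen with earlier results of these data known. Of each list, up to 4 genes with the largest change that passed were named, with others so that both directions had up to 2, in the first 2 comparisons. For each of the 6 genes the 3 most similar genes were taken, of which 1 is not reported here. Same-numbered libraries deviated together in 1 of 9 pairs (r over 0.1) and were not treated as pairs. Alternatives covered the pseudocount, filter, scaling, libraries in the fit, variance trend, sample weights, a replicate block and leaving out each library.

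Counts of tested genes in further marker lists follow. In WT DOX against saline 7 rose and 1 fell of 10 fibroblast genes, 3 and 5 of 10 smooth muscle and pericyte genes, 6 and 1 of 7 macrophage genes, 2 and 1 of 4 endocardial genes, 1 and 0 of 4 skeletal muscle genes, 2 and 1 of 3 adipocyte genes and 0 and 5 of 5 erythroid genes. In Sting-/- DOX against WT DOX these counts were 9 and 0, 8 and 1, 5 and 2, 3 and 1, 4 and 0, 1 and 0, and 5 and 0 in the same order. The lung epithelium list had no tested gene.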

Additional observations from a re-analysis of the deposited data

How the results depend on the processing

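Nppa, Nppb, Corin, Npr1 and Npr2 kept direction and call in all 3 comparisons under the 11 other settings and 9 omissions of a library, except Nppb in Sting-/- DOX against saline with median-ratio scaling (-0.083, adjusted p = 0.214). Npr3 lost its call in WT DOX against saline without a filter (adjusted p = 0.0621), with only 2 groups in the fit (0.0611) and in 6 of 9 omissions (range over the 9 of -0.362 to -0.141), among them WT DOX replicate 3. It was called in Sting-/- DOX against WT DOX with quantile normalization (-0.364), lost its call against saline without WT saline replicate 1 (-0.252) or Sting-/- DOX replicate 2 (-0.271), and was below a 5 FPKM filter. Over all genes, the scaling moved the split of calls: in WT DOX against saline 5651 higher and 2680 lower became 4676 lower with median-ratio scaling and 3461 higher and 5363 lower with quantile normalization, and in Sting-/- DOX against saline 3228 lower became 4866 and 5205. Among other named genes in WT DOX against saline, Ppp1r12a reversed to -0.007 and -0.017 and Rest to -0.007, none passing. Replicate numbers shared only a number: with a replicate block 5607 genes were higher and 2640 lower in WT DOX against saline, every call of the 6 genes was kept, and 4 of 18 comparisons of a library with another group gave its own number as the closest. Ratio tests cannot pass at 3 against 3, so their p-values say nothing of stability. The cause of these shifts was not tested. Unknown depth leaves the counting error of the lowest gene, Npr3, unmeasured.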
